A study of Mus musculus with 3 samples.

Results

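Endothelial cells line the blood vessels of the heart, and the endocardium lines its chambers. The 9 genes described here (Pecam1, Cdh5, Kdr, Tek, Tie1, Flt1, Emcn, Eng and Nfatc1) are used as markers of these linings. They were taken as every gene probe that carried 1 of these names in all 3 array files, with letter case ignored. This gave 9 of 27630 genes and 16 of 41174 gene probes. Hearts of mouse embryos on a C57BL/6 background were collected at embryonic day 15.5 (E15.5), from crosses of parents that each carried 1 intact and 1 deleted copy of Lrrc10, a gene of heart muscle cells. On each of 3 Agilent 2-color arrays, RNA pooled from 2 hearts labelled Lrrc10-/- (Cy5, red) was hybridized with RNA pooled from 2 wild-type hearts labelled Lrrc10+/+ (Cy3, green). The arrays are the 3 replicates of the ratio Cy5 over Cy3. The question was which transcripts differ before birth when Lrrc10 is lost. No array had its dyes swapped, and genotype and dye therefore cannot be told apart. For wild-type RNA the labels give an adult age as well as E15.5, of which the embryonic age was taken.

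The vascular lining is held together by junctions at cell borders, where VE-cadherin and PECAM-1 each bind their own kind on the neighboring cell. It is kept alive and patterned by vascular endothelial growth factor (VEGF), read by the receptors encoded by Kdr and Flt1, and by the angiopoietins, read by the receptor encoded by Tek with Tie1 as its partner. Endoglin assists receptors for bone morphogenetic proteins on the same cells. In the embryonic heart the endocardium additionally uses NFATc1, a transcription factor switched on by the phosphatase calcineurin, while the valves form.

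The labels were checked on the targeted gene before anything else. Lrrc10 gave processed signals (background-subtracted and dye-normalized brightness) of 6294, 8521 and 12637 in Cy5, labelled Lrrc10-/-, against 281, 237 and 200 in Cy3, labelled wild type. The channel labelled Lrrc10-/- was the brighter on all 3 arrays, which goes against the labels (mean log2 ratio 4.41 ± 0.40, SD, n = 3, limma adjusted p = 0.000387). Its adjusted p was 0.27 with the scanner software's ratios, 0.0902 after the arrays were scaled to each other and 0.504 when the methods' t-test was used. Every direction below is stated for Cy5, the channel labelled Lrrc10-/-, over Cy3, the channel labelled wild type, and higher and lower would change places if the labels were exchanged. Between 63.9% and 88.9% of gene spots in Cy5 and between 69.3% and 93.2% in Cy3 were well above background, with replicate 3 lowest in both channels.

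The probes through which the genes were read are shown because several of the comparisons below turn on probes of 1 gene that do not give the same value. Each probe has 60 bases. Sequences are given 5′ to 3′ with G and C in capitals, since base content differs between the probes of a gene. The first pair of lines gives whole probes and the rest the first 30 bases of each probe.
Pecam1 A_51_P400868: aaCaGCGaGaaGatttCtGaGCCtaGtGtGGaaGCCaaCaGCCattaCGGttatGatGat
Tie1 A_51_P177171: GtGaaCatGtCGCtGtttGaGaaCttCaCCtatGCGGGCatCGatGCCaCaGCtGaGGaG
Eng A_51_P268563: GGGattaCaGaaaGaCaCGGCaCtGCCGGt
Cdh5 A_51_P309056: tCCGtCaaCttCaGGaaaatGGCttGtCGa
Cdh5 A_52_P248604: aCttattataaGaCtCtaGttCtCaCaGaC
Flt1 A_51_P398723: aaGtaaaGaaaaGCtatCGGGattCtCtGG
Flt1 A_52_P520859: CCtGtattattCCGattttaataatCtaat

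Positions are those of the array files (mm9), and the exons under the probes were not analysed here. The Pecam1 probe A_51_P400868 (chr11:106542389-106544242, minus strand) is placed over 1854 bases of genome although it has 60 bases, so it bridges a gap between aligned parts. The Tie1 probe lies at chr4:118144132-118144191 (minus strand) and the Eng probe at chr2:32537310-32537369 (plus strand). The Cdh5 probes A_51_P309056 (chr8:106667499-106667558, plus strand) and A_52_P248604 (chr8:106668159-106668218, plus strand) are 600 bases apart and hold 45.0% and 35.0% G and C. The Flt1 probes A_51_P398723 (chr5:148373791-148373850, minus strand) and A_52_P520859 (chr5:148373864-148373923, minus strand) are 13 bases apart and hold 40.0% and 26.7% G and C. G and C made up 53.3% of the Tie1 probe and 55.0% of the Eng probe.

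Of the 16 probes, 13 were well above background in at least 1 channel on all 3 arrays and were tested, and they covered all 9 genes. None of these 13 probes passed the test in either direction. Among all 28328 probes that were tested, Cy5 was called the higher channel for 1.39% and the lower for 0.00353% (395 probes and 1 probe, limma adjusted p under 0.05). With the scanner software's own ratios both of these counts were 0, so the background itself depends on the normalization. Before adjustment, 0 of the 13 probes were higher and 2 were lower (Eng and Tie1) at p under 0.05, against 9.07% and 4.26% of all tested probes. In direction alone, 5 of the 13 probes were lower and 2 were higher on all 3 arrays, against 17.6% and 19.3% of the 28084 tested probes with a value on every array. In whole hearts, fewer cells of a type and less RNA per cell cannot be told apart. A p that misses the threshold does not show that the channels were alike. For the 13 probes, 95% intervals of the mean log2 ratio, from limma's moderated error, are therefore given below.

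**Figure D1:**
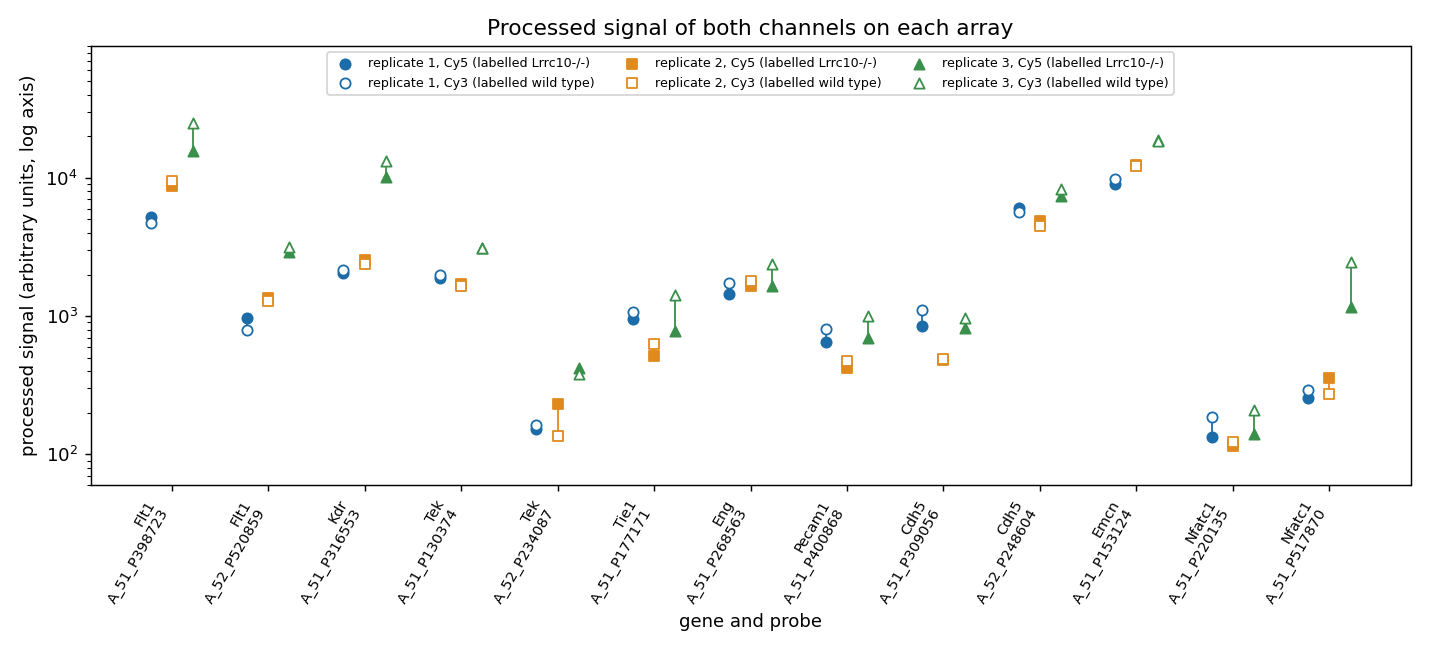
Processed signal (log axis, arbitrary units) of the 13 tested probes of the 9 genes, by gene and probe, for each of the 3 arrays. Filled symbols are Cy5 (labelled Lrrc10-/-), open symbols are Cy3 (labelled wild type), and a line joins the channels of 1 array. Channels of an array lie close together, and replicate 3 is far brighter than the others for Kdr and for the Nfatc1 probe A_51_P517870. Heights of different probes are not comparable.

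The VEGF receptors gave values on both sides of 0. Kdr encodes the receptor that carries most VEGF signaling in endothelium. Its probe A_51_P316553, printed in 10 spots on each array, had Cy5 signals of 2043, 2567 and 10137 and Cy3 signals of 2159, 2378 and 13277 on replicates 1, 2 and 3. The log2 ratios were -0.052, 0.13 and -0.31, with a mean of -0.077 ± 0.22 (SD, n = 3, interval -0.38 to 0.23, limma adjusted p = 0.842). The sign therefore differed between arrays, and without replicate 3 the mean turned to 0.040. Within arrays, 6, 3 and 10 of the 10 spots were below 0 on replicates 1, 2 and 3, so the lower value on replicate 3 (spots from -0.42 to -0.21) was shared by all spots of that array.

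Flt1 encodes a receptor that binds VEGF tightly and, in its soluble form, withholds it from Kdr. Probe A_51_P398723 gave Cy5 signals of 5204, 8736 and 15583 and Cy3 signals of 4688, 9435 and 25143, and log2 ratios of 0.24, 0.039 and -0.51 on replicates 1, 2 and 3. Probe A_52_P520859, 13 bases away, gave Cy5 signals of 977, 1360 and 2892 and Cy3 signals of 797, 1281 and 3170, and log2 ratios of 0.65, 0.29 and -0.043. Both probes thus had their highest ratio on replicate 1 and their lowest on replicate 3. The means were -0.076 ± 0.39 (SD, n = 3, interval -0.46 to 0.30, limma adjusted p = 0.879) and 0.30 ± 0.35 (SD, n = 3, interval -0.059 to 0.66, limma adjusted p = 0.451). The second probe read higher than the first on all 3 arrays, and the difference of the first minus the second was -0.41, -0.26 and -0.47 (mean -0.38 ± 0.11, SD, n = 3 arrays). With the software's ratios this difference was -0.30 ± 0.23 (SD, n = 3). Neighboring stretches of 1 transcript thus gave means on either side of 0.

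The angiopoietin receptor Tek and its partner Tie1 had means of opposite sign. Tek was read by probe A_51_P130374 with Cy5 signals of 1893, 1699 and 3086 and Cy3 signals of 1999, 1661 and 3105. Its log2 ratios were 0.088, 0.22 and 0.021, a mean of 0.11 ± 0.10 (SD, n = 3, interval -0.16 to 0.38, limma adjusted p = 0.728). This probe was above 0 on all 3 arrays after loess, although the software's ratios averaged -0.018 on the log2 scale. The dimmer Tek probe A_52_P234087 gave -0.25, 0.45 and 0.045 (mean 0.084 ± 0.35, SD, n = 3, interval -0.28 to 0.45, limma adjusted p = 0.857), so its sign rests on replicate 2.

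Tie1 had the lowest mean of the 13 tested probes. Its Cy5 signals were 950, 517 and 782 and its Cy3 signals 1069, 627 and 1425 on replicates 1, 2 and 3. Cy5 was the dimmer channel on every array. The log2 ratios were -0.28, -0.33 and -0.71, with a mean of -0.44 ± 0.23 (SD, n = 3, interval -0.75 to -0.13, unadjusted p = 0.0119, limma adjusted p = 0.224). This probe was at least 1.2-fold lower on all 3 arrays by its loess ratios, alone among the 13, and 0 probes were 1.2-fold higher, against 1.24% and 4.16% of all tested probes. By the software's ratios, which were 0.889, 0.824 and 0.549, it missed that limit on replicate 1, and 0 of the 13 probes passed in either direction (3.58% of all tested probes passed higher and 1.71% lower). Under 15 alternative settings the mean stayed between -0.53 and -0.31, and the adjusted p between 0.182 and 0.735.

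Eng encodes endoglin, a coreceptor for circulating bone morphogenetic proteins. Its Cy5 signals were 1444, 1661 and 1639, and its Cy3 signals were 1743, 1797 and 2392. Cy5 was again dimmer on every array. The highest Cy5 signal lay below the lowest Cy3 signal, which held for no other of the 13 probes and for 1.01% of all tested probes. This sets signals of different arrays against each other, so it also depends on how alike a probe's brightness was on the 3 arrays. Relative to the median tested probe, that of Eng was 1.73, 1.73 and 1.76 on the log2 scale. The log2 ratios were -0.48, -0.26 and -0.52, with a mean of -0.42 ± 0.14 (SD, n = 3, interval -0.70 to -0.14, unadjusted p = 0.00949, limma adjusted p = 0.203). Under the methods' t-test, adjusted over all tested probes, Eng had an adjusted p of 0.519, and it was the sole probe of the 13 under 0.05 before adjustment. The share of all tested probes under 0.05 before adjustment was not counted for that test, so this count has no background beside it. Under the alternatives the mean of Eng stayed between -0.50 and -0.31 and the adjusted p between 0.149 and 0.793. Eng and Tie1 were thus lower on 3 of 3 arrays by every ratio printed here, and neither passed the adjusted threshold in these runs.

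**Figure D2:**
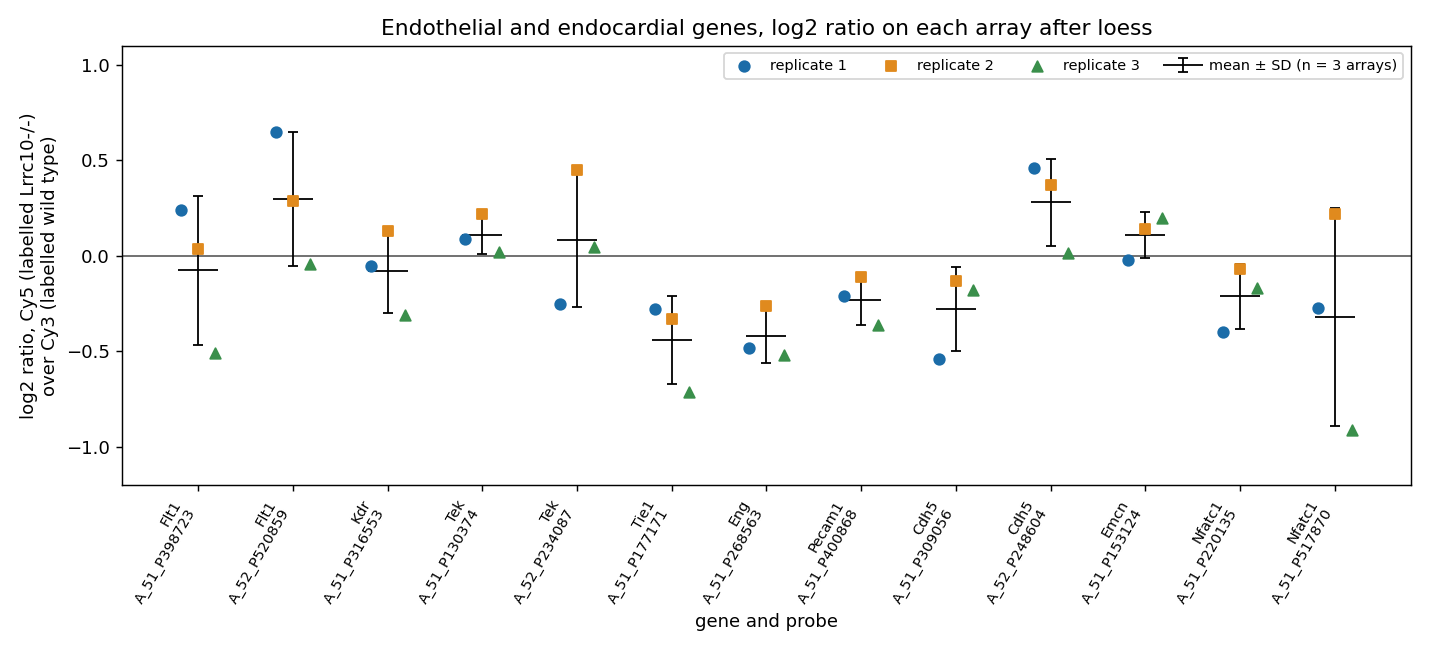
Log2 ratio of Cy5 (labelled Lrrc10-/-) over Cy3 (labelled wild type) after loess for the 13 tested probes, by gene and probe. Colored symbols are the 3 arrays, and black bars give the mean ± SD (n = 3). Tie1 and Eng lie below 0 on all arrays with means of -0.44 and -0.42, and the Cdh5 probes lie on opposite sides of 0.

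The junction proteins were read by 3 tested probes. Pecam1 encodes an adhesion molecule at endothelial cell borders. Its probe A_51_P400868, printed in 10 spots on each array, gave averaged signals of 654, 420 and 690 in Cy5 and 809, 471 and 994 in Cy3. The log2 ratios were -0.21, -0.11 and -0.36, with a mean of -0.23 ± 0.13 (SD, n = 3, interval -0.50 to 0.053, limma adjusted p = 0.469). All 3 ratios were below 0, as were the loess ratios of 8, 8 and 10 of the 10 spots on replicates 1, 2 and 3. By processed signal the brightest Cy5 spot lay below the dimmest Cy3 spot on each array (715 against 747, 446 against 447 and 723 against 961). The mean was -0.33 with the software's ratios. Loess ratios of single spots of 1 array spread by SDs of 0.246, 0.165 and 0.0632. The SD of 0.13 is that of array values, each an average of 10 spots, so it is not comparable with these.

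Cdh5 encodes VE-cadherin, the adhesion protein of endothelial junctions, and its probes pointed in opposite directions. Probe A_51_P309056 had Cy5 signals of 849, 483 and 822 and Cy3 signals of 1099, 490 and 967, and gave log2 ratios of -0.54, -0.13 and -0.18 (mean -0.28 ± 0.22, SD, n = 3, interval -0.59 to 0.026, limma adjusted p = 0.412). Probe A_52_P248604 had Cy5 signals of 6051, 4869 and 7386 and Cy3 signals of 5655, 4516 and 8246, and gave 0.46, 0.37 and 0.015 (mean 0.28 ± 0.23, SD, n = 3, interval -0.032 to 0.59, limma adjusted p = 0.421). The first was below 0 and the second above 0 on all 3 arrays after loess. The difference between them was -1.0, -0.50 and -0.19 (mean -0.56 ± 0.41, SD, n = 3), and it was -0.22 ± 0.21 (SD, n = 3) with the software's ratios. By those ratios the second probe averaged 0.016, so its distance from 0 depended on the normalization. No direction can be given for Cdh5 as a gene from these arrays.

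Emcn encodes endomucin, a mucin on the surface of endocardium and of veins and capillaries. Its probe gave Cy5 signals of 9088, 12367 and 18776 and Cy3 signals of 9852, 12209 and 18333. By the software's ratios, Cy5 was 0.922, 1.01 and 1.02 times Cy3 on replicates 1, 2 and 3. The log2 ratios were -0.022, 0.14 and 0.20, with a mean of 0.11 ± 0.12 (SD, n = 3, interval -0.17 to 0.38, limma adjusted p = 0.736). The mean was -0.021 with the software's ratios. The sign of Emcn thus differed both between arrays and between normalizations.

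Nfatc1, the endocardial transcription factor, was read by a pair of probes 41715 bases apart. Probe A_51_P220135 gave Cy5 signals of 133, 115 and 139 and Cy3 signals of 186, 124 and 211, and log2 ratios of -0.40, -0.066 and -0.17 (mean -0.21 ± 0.17, SD, n = 3, interval -0.51 to 0.078, limma adjusted p = 0.507). Its Cy5 signal was the dimmer on each array. Probe A_51_P517870 gave Cy5 signals of 256, 359 and 1159 and Cy3 signals of 294, 273 and 2462, and log2 ratios of -0.27, 0.22 and -0.91 (mean -0.32 ± 0.57, SD, n = 3, interval -0.80 to 0.16, limma adjusted p = 0.551). Its mean was -0.021 without replicate 3, so that array sets its size.

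The remaining 3 probes were too dim to be tested. Pecam1 A_52_P349070, which lies inside the stretch that the other Pecam1 probe spans, gave processed signals of 6.71, 11.1 and 15.3 in Cy5 and 17.6, 14.6 and 30.2 in Cy3, and was well above background on 0 arrays in Cy5 and 2 in Cy3. Kdr A_52_P478193 was well above background on replicates 1 and 2 and not on replicate 3, with Cy5 signals of 110, 73.3 and 10.8 and a Cy3 signal of 7.34 on replicate 3. Flt1 A_52_P650151 was well above background on 0 arrays in either channel.

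The brightness of some members differed between arrays in both channels together, which a ratio does not show. Relative to the median tested probe of each array, the mean signal of both channels for Kdr A_51_P316553 was 2.13, 2.25 and 4.30 on the log2 scale on replicates 1, 2 and 3. Replicate 3 thus lay 2.11 above the mean of the other arrays, a shift larger than that of 99.3% of all tested probes. The Nfatc1 probe A_51_P517870 shifted by 2.37 (99.7%) and the Flt1 probes A_51_P398723 and A_52_P520859 by 1.36 and 1.24 (97.5% and 96.5%). The other Nfatc1 probe shifted by 0.10 (47.1%) and Eng by 0.033 (43.8%). Tek A_52_P234087 shifted by 0.99 (92.4%), and Tek A_51_P130374 and Tie1 by 0.53 and 0.29. The shift was not shared by the other probe of Kdr, A_52_P478193, whose signals were lowest on replicate 3. The probes of Nfatc1 parted from each other too. Nor was it shared by the probe of Flt4, a further VEGF receptor, with Cy5 signals of 876, 791 and 105 and Cy3 signals of 481, 856 and 86.5. The brightest tested probe of Ptprb, a gene of the angiopoietin list, was brighter on replicate 3. Its Cy5 signals were 771, 1866 and 4859 and its Cy3 signals 661, 1241 and 7879. Flt4 and Ptprb were named here after their values were seen, and shifts of the other pathway genes were not counted. Of the 13 probes, 9 also had their lowest log2 ratio on replicate 3, against 35.7% of all tested probes.

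**Figure D3:**
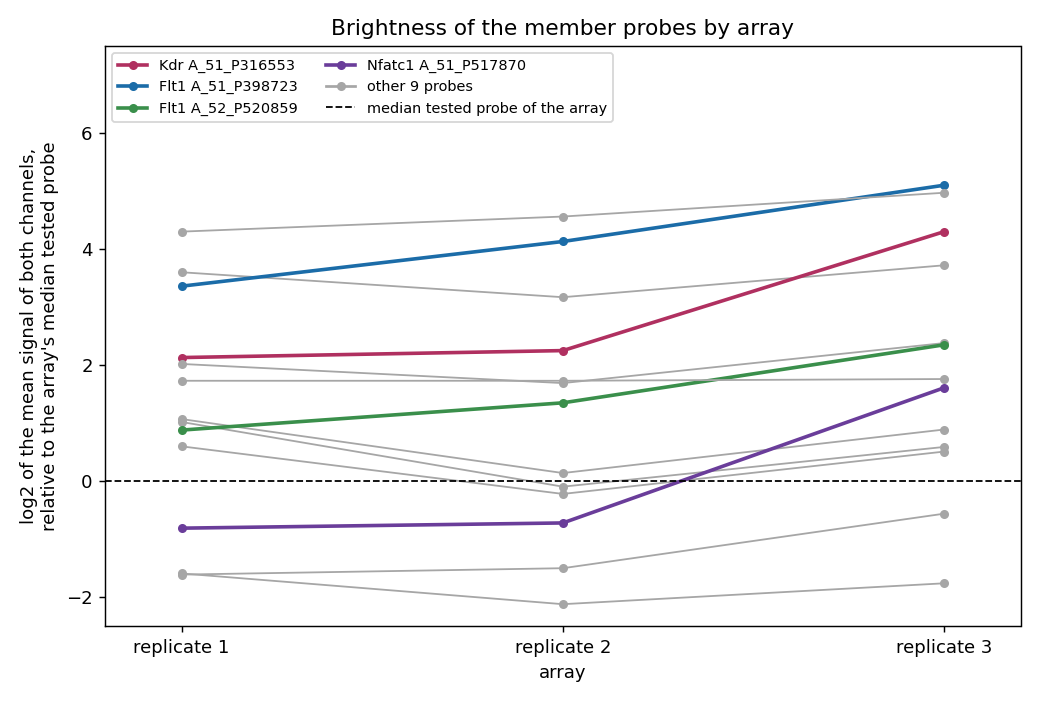
Log2 of the mean signal of both channels, relative to the median tested probe of the same array, for the 13 tested probes on the 3 arrays. Each line is 1 probe. Kdr, both Flt1 probes and Nfatc1 A_51_P517870 (colored) lie 1.24 to 2.37 higher on replicate 3 than on the mean of replicates 1 and 2, and heights of different probes are not comparable.

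When each gene was represented by its brightest tested probe, the median log2 ratio of the 9 genes was -0.077, beside 0.028 for all 18991 tested genes. It was -0.22 with the software's ratios, -0.15 with median centring and -0.023 with array weights, and it turned to 0.040 without replicate 3 (-0.23 and -0.18 without replicates 1 and 2). Of the 9 genes, 6 were below 0 and 3 above, while of all tested genes 8390 were below and 10601 above. For the 9 genes the median by array was -0.052, 0.13 and -0.36 on replicates 1, 2 and 3, where all tested genes had medians of 0.020, 0.040 and 0.016. The median of the 9 genes thus lay below that of all genes on replicates 1 and 3 and above it on replicate 2.

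The wider pathways around these genes were then counted, in 7 lists with 77 genes. All were tested, Angpt4 through a probe whose identity was not checked. None of the 77 genes was called in either direction through any of its tested probes, beside the 1.39% and 0.00353% of all tested probes. Before adjustment, with 1 probe a gene, 7 were higher and 6 lower at p under 0.05, against 10.7% and 4.19% of all tested genes. Their median log2 ratio was 0.012, with 42 genes above 0 and 35 below, beside 10601 above and 8390 below among all tested genes. Leaving out replicate 3 raised the calls to 7 higher (Ptprb, Egfl7, Ctnna1, Gata2, Tmem100, Klf2 and Ctnnb1) and 1 lower (Smad6), while the share of all probes called rose to 5.48% higher and 0.882% lower. These shares are of probes, whereas a gene counted if any of its tested probes was called, so the units are unlike. Ctnna1, Gata2, Klf2 and Ctnnb1 were called without replicate 3 through a probe other than their brightest, and the brightest probe had means on 3 arrays of 0.057, 0.24, -0.023 and -0.19. None of the 13 probes of the 9 genes was called without replicate 3 either. Values of pathway genes below are those of the brightest tested probe of each gene. Other tested probes of these genes, where there were any, are not given and can differ.

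Among VEGF ligands, receptor and coreceptors (8 genes, 5 above 0, median 0.054), the genes of lowest unadjusted p were the ligands Pgf and Vegfa. Placental growth factor (Pgf), a ligand of Flt1, had Cy5 signals of 1212, 360 and 610 and Cy3 signals of 775, 319 and 271, and a mean of 0.54 ± 0.28 (SD, n = 3, limma adjusted p = 0.171). Vegfa, the main ligand of Kdr, gave 0.041, 0.23 and 0.25 (mean 0.17 ± 0.11, SD, n = 3, limma adjusted p = 0.573). Pgf and Vegfa had the brighter signal in Cy5 on all 3 arrays, while the other ligands in the list had means on either side of 0.

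Of the angiopoietin list (4 genes, 3 above 0, median 0.10), Angpt1, the ligand that activates the Tek receptor, gave -0.16, -0.53 and -0.92 (mean -0.54 ± 0.38, SD, n = 3, limma adjusted p = 0.223). Its Cy5 signals were 529, 648 and 220 and its Cy3 signals 550, 866 and 750. The tested probe counted as Angpt4, placed at chr14:44540232-44540291, gave 0.30, 0.056 and 0.15 (mean 0.17 ± 0.12, SD, n = 3, limma adjusted p = 0.582). That this probe reads an angiopoietin was not checked, and the counts and median of the list include it. Angpt1 and Tie1 were thus both dimmer in Cy5 on every array, while Tek A_51_P130374 differed little between the channels.

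In endoglin, ALK1 and SMAD signaling (11 genes, 7 above 0, median 0.030), Smad6, an inhibitor of bone morphogenetic protein signaling, gave -0.67, -0.38 and -0.22 (mean -0.43 ± 0.23, SD, n = 3, limma adjusted p = 0.238). Id1, a transcriptional regulator induced by the same pathway, gave 0.42, 0.23 and 0.42 (mean 0.36 ± 0.11, SD, n = 3, limma adjusted p = 0.259). Among junction partners (11 genes, 8 above 0, median 0.026), Cldn5, the claudin of endothelial tight junctions, had a mean of 0.20 ± 0.043 and Ctnnd1, the catenin that binds the VE-cadherin tail, a mean of -0.20 ± 0.16 (SD, n = 3, limma adjusted p = 0.50 and 0.525). Junction partners were thus found on either side of 0, as the Cdh5 probes were.

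In calcineurin and NFAT signaling (8 genes, 4 above 0, median 0.048), which acts on NFATc1, the genes of lowest unadjusted p were catalytic subunits of calcineurin with opposite signs. Ppp3cb gave 0.47, 0.27 and 0.64 (mean 0.46 ± 0.18, SD, n = 3, limma adjusted p = 0.185). Ppp3ca gave -0.46, -0.37 and -0.37 (mean -0.40 ± 0.051, SD, n = 3, limma adjusted p = 0.199). Each of these kept its sign on all 3 arrays and neither was called, while a further catalytic subunit in the list changed sign between arrays.

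Further endothelial genes (29 genes, 13 above 0, median -0.049) held Egfl7, a protein that endothelial cells secrete into their matrix, with Cy5 signals of 10744, 13531 and 33280 and Cy3 signals of 8304, 12092 and 26421 (mean log2 ratio 0.57 ± 0.17, SD, n = 3, limma adjusted p = 0.102). Vwf, the von Willebrand factor stored in endothelial cells, had Cy5 signals of 2162, 1940 and 2770 and Cy3 signals of 2827, 2216 and 4532 (mean -0.55 ± 0.20, SD, n = 3, limma adjusted p = 0.123). By their brightest tested probes, Vwf, Tie1 and Eng were dimmer in Cy5 on every array, and Egfl7 brighter. Vwf had 2 tested probes, and the other is not given here. With the software's ratios the means were 0.29 for Egfl7 and -0.43 for Vwf. Of further endocardial genes (6 genes, 2 above 0, median -0.013), Tmem100 gave 0.59 and 1.42 on replicates 1 and 2 (mean 1.0 ± 0.59, SD, n = 2, limma adjusted p = 0.131), its spot on replicate 3 being left out as non-uniform. With that spot kept the mean was 1.07 and the adjusted p 0.0355. Hapln1, a matrix protein of the cushions, had a mean of 0.15 ± 0.13 (SD, n = 3, limma adjusted p = 0.626).

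**Figure D4:**
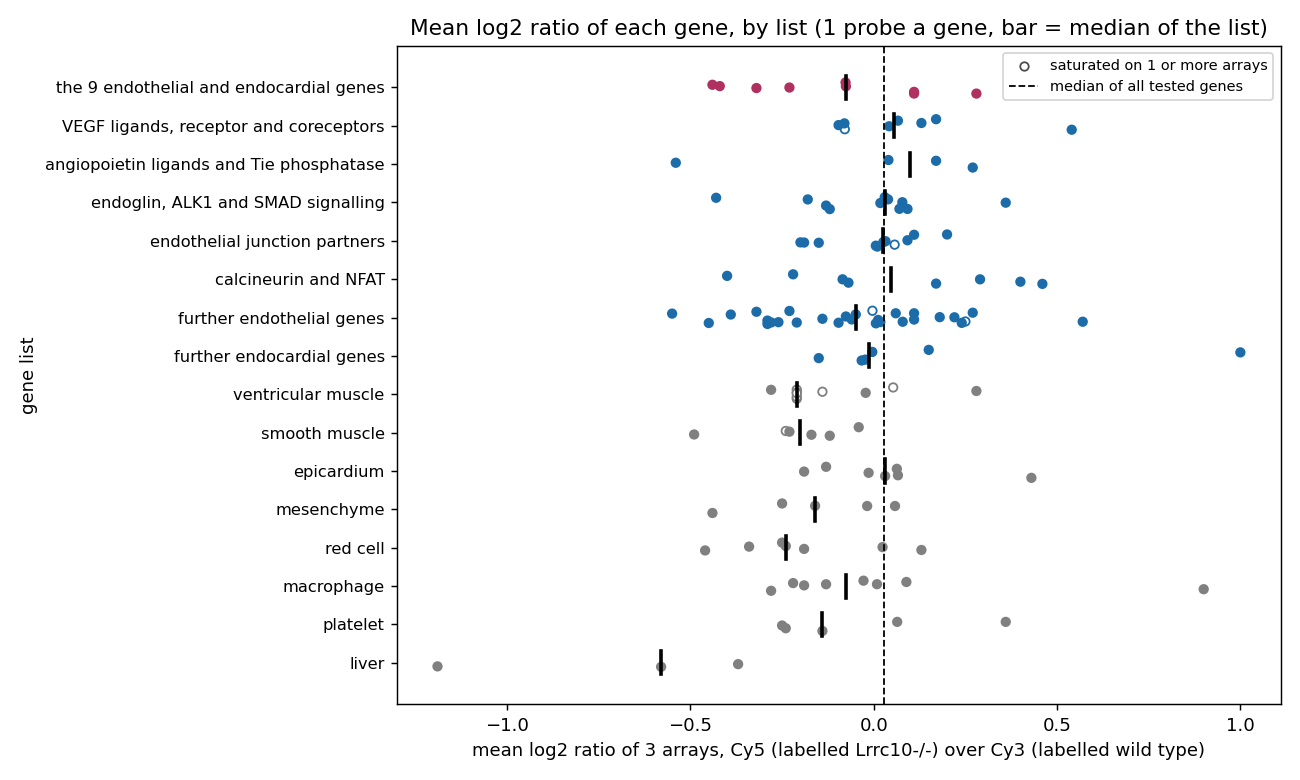
Mean log2 ratio (Cy5, labelled Lrrc10-/-, over Cy3, labelled wild type) of each tested gene of the 9 endothelial and endocardial genes (red), the 7 pathway lists (blue) and 8 lists of other cell types (gray), with probes saturated on any array as open symbols. Short black bars are list medians, saturated probes included, and the dashed line is the median of all tested genes (0.028). The 9 genes spread from -0.44 to 0.28, within the range of the pathway lists.

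Lists of other cells of the heart were read beside these values. Of 10 ventricular muscle genes, 7 were read by a probe saturated on at least 1 array, 5 of them in both channels on all 3 arrays, and no ratio was read from these 7. The other 3 ranged from -0.28 to 0.28 (median -0.022, 2 below 0). Of 6 smooth muscle genes 1 was saturated, and the other 5 were all below 0 (median -0.17, range -0.49 to -0.041). All genes of both lists were well above background in both channels on every array. Epicardial genes (3 of 7 below 0, median 0.031) differed by array, with medians of -0.18, -0.10 and 0.42 on replicates 1, 2 and 3, so they were highest on replicate 3, where the 9 genes were lowest (-0.36). Mesenchymal genes had a median of -0.16 (4 of 5), red cell genes -0.24 (5 of 7), macrophage genes -0.077 (5 of 8) and platelet genes -0.14 (3 of 5). Summed over the probes never saturated, processed signals of the ventricular muscle list ranged from 57227 to 90193 in Cy5 and from 57283 to 92189 in Cy3, and those of the smooth muscle list from 38346 to 99037 and from 42244 to 129607. The same sums for the epicardial list ranged from 11349 to 29984 and from 14065 to 24679. Liver genes (3 of 5 tested) differed by array, with medians of 0.81, -2.74 and 0.33 on replicates 1, 2 and 3. No gene of these lists was called, and the part of the other cells in the values of the 9 genes was not tested.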

How the data were processed

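Heart RNA was measured on 3 Agilent 2-color arrays of 43379 gene spots. Per the file headers, the authors extracted intensity values with Feature Extraction 9.1.3.1 (scanner G2505B, replicate 1) and 10.7.3.1 (G2505C, replicates 2 and 3), and background-subtracted, detrended and dye-normalized (linear and lowess) the processed intensities. The deposited log10 ratio is that of processed Cy5 over Cy3, and the deposited series table equalled it (largest difference 0). Flags of 0 or 1 were used as deposited.

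From mean signals, limma 3.58.1 (R 4.3.3) gave log2 ratios (normexp on median local background, offset 50, then loess with control spots at weight 0). Non-uniform spots were left out, spots of 1 probe averaged, and probes well above background in Cy5 or in Cy3 on all 3 arrays tested (28328, of which 244 lacked 1 array) against 0 (lmFit, eBayes, two-sided), with Benjamini-Hochberg adjustment over all of them at 0.05. The script was tested on simulated data. Symbols were updated through RefSeq (GRCm38.p6 table, 26933 of 27730 accessions matched), and positions are mm9. Named were every probe of the 9 genes, Lrrc10, and of each pathway list the called genes and the 2 of lowest unadjusted p. Members and lists, written from general knowledge, were chosen with earlier results of these data known. The number of arrays limits precision. Per the methods the arrays are biological replicates, made from pooled littermates. Alternatives covered background correction, normalization, filters, weights, trend, software version, the methods' t-test and leaving out each array. The authors' EDGE3 selection was not rerun.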

Additional observations from a re-analysis of the deposited data

Results flagged for a closer look

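Spike-in spots, which hold probes for control RNA, enter none of the comparisons above. They were brighter, by their median, than every negative control spot on each of the 3 arrays, in either channel. The brightest negative control spot had a Cy3 signal of 422 on replicate 1, against 17.4 and 57.5 on replicates 2 and 3. The median processed signal of the spike-in spots was 117 in Cy5 and 557 in Cy3 on replicate 1, 1450 and 1100 on replicate 2, and 1120 and 1330 on replicate 3. The ratio of Cy3 over Cy5 was 4.78, 0.755 and 1.19 on replicates 1, 2 and 3, so replicate 1 stood apart. Its part in the ratios of the 9 genes was not tested. Without replicate 1 the means of the 13 probes kept their sign, with Tie1 at -0.52 and Eng at -0.39.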

How the results depend on the processing

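No probe of the 9 genes was called higher or lower under any of the 15 alternative settings, of which the correction for base content was chosen after seeing the data. Each array sets a pool of each genotype against the other, so the main test of the ratios is already paired by array. No further pairing was possible, since there is 1 group of ratios. Over those settings the mean log2 ratios of the 13 probes kept their direction in all but 8 of 195 values. The changed filters, the intensity trend and the methods' t-test use the same ratios as the main test, so they could not change a mean. Keeping non-uniform spots gave the same member means as rounded here. Of the values that turned, Tek A_51_P130374 was -0.018 and Emcn -0.021 with the software's ratios. With array weights Flt1 A_51_P398723 was 0.0011 and with software version as a block 0.0031, and with base content corrected Tek A_52_P234087 was -0.030. Leaving out 1 array gave ranges of -0.10 to 0.25 for Tek A_52_P234087, -0.18 to 0.040 for Kdr and -0.24 to 0.14 for Flt1 A_51_P398723, and of -0.23 to 0.040 for the median of the 9 genes, which was -0.22 with the software's ratios. By loess ratios 1 probe (Tie1), in place of 0, was past 1.2-fold on all arrays.

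The background count depended far more on the settings. In place of 395 probes higher and 1 lower, there were 0 and 0 with the software's ratios, with arrays scaled to each other and with the methods' t-test, 1 and 0 without background correction and with software version as a block, and 145 and 0 with no filter. The count of lower probes was 2 with median centring, 11 with array weights, 3 with an intensity trend and 4 with base content corrected. Leaving out 1 array gave 1 to 1540 probes higher and 0 to 248 lower, the highest counts without replicate 3, and 0 to 7 pathway genes higher and 0 to 1 lower. Keeping non-uniform spots gave 1 pathway gene higher (Tmem100). The log2 ratio of Lrrc10 was 5.21 with the software's ratios, 4.47 after scaling and 4.41 with that t-test, where it was no longer called. The causes were not tested. Dim probes (Nfatc1 A_51_P220135, Tek A_52_P234087) are limited by signal over background.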

Other observations

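Across the 13 tested probes of the 9 genes, the mean log2 ratio was lower in probes with more G and C (Pearson r = -0.773, Spearman rho = -0.754, with r of -0.710, -0.688 and -0.487 on replicates 1, 2 and 3). The probes ranged from 26.7% (Flt1 A_52_P520859) to 55.0% (Eng) in G and C. Across all 28328 tested probes r was 0.0507 and rho 0.0156. These points are probes of the same 3 arrays and in part of the same genes, and the values are a description that was noticed after the ratios were seen. Each array was corrected for the counts of A, C and G in the probes, fitted over all 28328 tested probes and not to the relation among the 13. This correction left the difference between the Cdh5 probes at -0.59 ± 0.40 and that between the Flt1 probes at -0.37 ± 0.19 (SD, n = 3 arrays). It gave corrected means of -0.46 for Tie1 and -0.49 for Eng. The part of base content in these values was not tested.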
